A study of Saccharomyces cerevisiae with 12 samples.

Results

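Among the 6120 genes of the deposited table, 52 encode factors that build the large (60S) subunit of the ribosome in budding yeast, Saccharomyces cerevisiae. They were taken by name from a list of known assembly factors, but with earlier results of these data known. All 52 were found, none was at 0 in any library, and all passed the filter on low values, a mean of at least 10 over the 12 libraries. Poly(A) RNA of strain pJD47 had been sequenced at 4 stages around the exit from quiescence, the resting state of starved yeast, with 3 libraries at each. All cultures were first grown at 30 °C in synthetic complete medium with 2% glucose. Quiescence was brought on by 7 days in plain water to which 10 mM deuterated acetate had been added. Cells of the 30 min and 240 min stages came from the same treatment and were taken that long after washing and transfer to liquid medium, which the labels do not describe further. The fourth stage was logarithmic growth.

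Values are normalised read counts, that is reads of a gene divided by a size factor of the library. They are relative to the other genes, so a rise or fall need not be a change in the amount of an mRNA per cell. Quiescent libraries held between 1195233 and 5220494 reads, those of the 30 min stage between 7943459 and 11866340, those of the 240 min stage between 11572190 and 12428294, and log-phase libraries between 13480102 and 15100323. In the shallowest, quiescent replicate 1, a single read counted for 6.97 units and the lowest of the 52 genes still had 20 reads. The labels call the libraries biological replicates without saying whether cultures were separate throughout, so p-values measure the spread between these libraries only. Replicate 1 stood apart from replicates 2 and 3 at all 4 stages, and most of all in log phase, for these genes and over all genes tested. Results that turn on it are therefore given without it too. In bulk RNA, fewer cells with a transcript and less of it per cell cannot be told apart. Of 12 quiescence marker genes, 7 fell at 30 min against quiescent cells and 11 fell at 240 min against quiescent cells, and the others did not pass the test. Of 12 log-phase markers, 2 rose at 30 min against quiescent cells and 10 did not pass. At 240 min against 30 min, 11 of them rose and 1 did not pass. In log phase against 240 min, 4 quiescence markers rose and 0 fell, while 0 log-phase markers rose and 1 fell. Of all genes tested, 3.27% rose and 4.09% fell there. In log phase against quiescent cells, 9 quiescence markers were lower and 1 higher, and 11 log-phase markers were higher and 0 lower.

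A 60S subunit is built around a long precursor ribosomal RNA (pre-rRNA) in the nucleolus, released into the nucleoplasm and exported through the nuclear pores, and it is finished in the cytoplasm. Assembly factors bind and leave in a set order: helicases and scaffold proteins fold the first pre-rRNA domains, later nucleolar factors shape the particle around internal transcribed spacer 2, nucleoplasmic ATPases and GTPases remodel it, and export factors carry it out and are recycled. Budding yeast is the organism in which most of these steps were worked out, and its assembly genes are known to be switched together with growth. The 52 genes were divided by the step at which the protein acts: 13 early nucleolar, 27 later nucleolar, 8 nucleoplasmic, and 4 export and cytoplasmic factors.

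The genes share promoter elements that the choice by name did not use. PAC and RRPE (ribosomal RNA processing element) are textbook sequence words of ribosome biogenesis promoters. Both strands were searched from 250 bases before to 50 bases after the annotated gene start, the start of the coding sequence, in the R64 reference, for longer cores (GCGATGAG for PAC, GAAAAATTT for RRPE) and for the shorter words inside them (GATGAG and AAAAATTT). The longer PAC core was in 30 of the 52 windows (57.7%) and in 3.93% of the windows of all 6001 protein-coding genes. RRPE was in 29 of 52 (55.8%) and in 6.08% of all windows. Both were in 15 (28.8%) and in 1.32% of all, and at least 1 of them in 44 (84.6%) and in 8.70% of all. With the shorter words, 41 windows held both (78.8%, against 5.63% of all) and all 52 held at least 1 (28.9% of all). The longer PAC core lay 55 to 181 bases before the start with a median of 122, and RRPE 99 to 249 bases with a median of 148.

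The stretches around the matches are printed for genes at both ends of the response described next: the 5 that rose most (SPB1, CIC1, MAK16, PUF6, RIX7), 2 export and cytoplasmic factors (NMD3, LSG1), the 2 that fell (NOP16, SPB4) and the paralogs SSF1 and SSF2. They run 5′ to 3′ on the strand of the gene, from the R64 reference of RefSeq, which is the sacCer3 build. Capitals mark a longer core or, where a window has none of that motif, its shorter word (in PUF6 a pair of overlapping PAC words). On the other strand PAC reads CTCATCGC and RRPE reads AAATTTTTC.
SPB1 (chrIII:31299-31337, plus strand): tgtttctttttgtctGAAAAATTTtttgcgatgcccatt
CIC1 (chrVIII:210693-210747, plus strand): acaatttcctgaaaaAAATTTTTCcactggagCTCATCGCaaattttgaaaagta
MAK16 (chrI:101249-101296, minus strand): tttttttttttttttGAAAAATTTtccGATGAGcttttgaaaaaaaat
PUF6 (chrIV:1443477-1443533, minus strand): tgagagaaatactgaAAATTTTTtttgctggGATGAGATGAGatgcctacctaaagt
RIX7 (chrXII:73247-73299, minus strand): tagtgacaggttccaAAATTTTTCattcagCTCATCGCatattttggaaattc
NMD3 (chrVIII:443655-443705, plus strand): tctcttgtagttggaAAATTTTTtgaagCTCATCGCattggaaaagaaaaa
LSG1 (chrVII:314482-314584, plus strand): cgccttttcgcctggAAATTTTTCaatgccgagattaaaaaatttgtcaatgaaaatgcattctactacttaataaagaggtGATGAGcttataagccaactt
NOP16 (chrV:156629-156718, plus strand): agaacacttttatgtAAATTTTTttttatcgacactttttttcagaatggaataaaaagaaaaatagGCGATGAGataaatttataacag
SPB4 (chrVI:146981-147051, minus strand): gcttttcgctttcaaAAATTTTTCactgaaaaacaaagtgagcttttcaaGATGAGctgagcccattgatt
SSF1 (chrVIII:229138-229260, plus strand): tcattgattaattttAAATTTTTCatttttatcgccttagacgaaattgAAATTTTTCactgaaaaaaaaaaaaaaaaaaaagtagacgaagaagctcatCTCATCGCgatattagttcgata
SSF2 (chrIV:1087340-1087480, plus strand): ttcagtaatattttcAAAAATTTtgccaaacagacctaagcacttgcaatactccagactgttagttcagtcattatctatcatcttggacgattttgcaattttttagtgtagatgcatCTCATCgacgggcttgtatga

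SPB1, which rose most, has no PAC word in its window, and PUF6 holds the shorter words only. Of all 52 genes, in the 250 bases before the start and with the matches chosen as for the capitals, RRPE lay upstream of PAC in 34 and downstream of it in 4 (NOP7, NOG1, NOG2 and REI1). The matches overlapped or alternated in 2, and 12 genes held a single motif, PAC in 6 and RRPE in 6. CIC1, RIX7 and SSF1 held both longer cores. SSF2, the paralog of SSF1, held the shorter words only. By class, at least 1 longer core was in 11 of 13 early, 23 of 27 nucleolar, 6 of 8 nucleoplasmic and all 4 export and cytoplasmic genes.

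**Figure D1:**
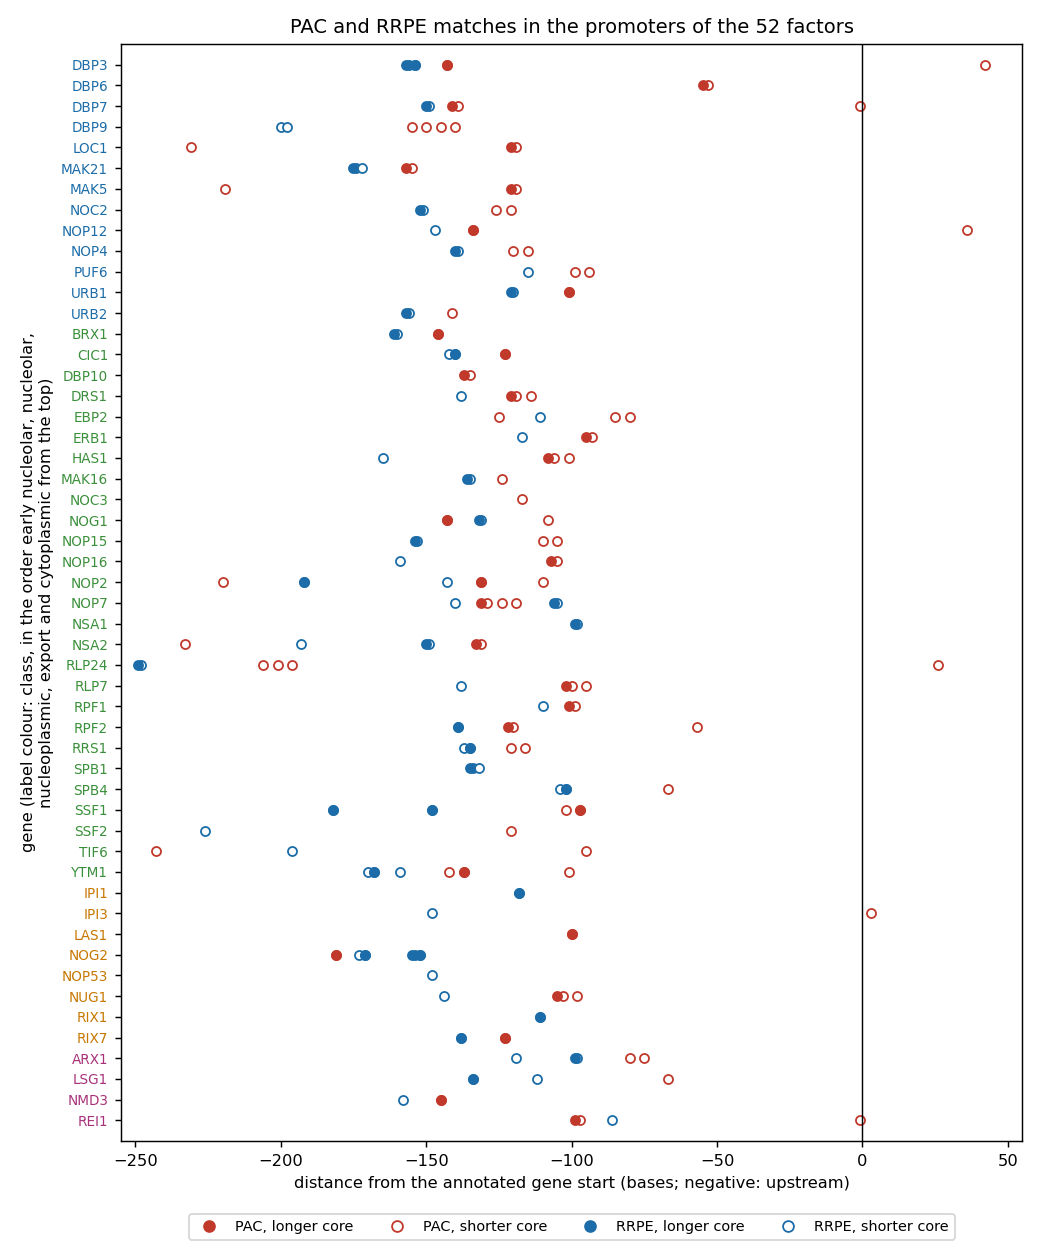
Positions of PAC (red) and RRPE (blue) matches in the promoters of the 52 genes, on either strand, in bases from the annotated gene start (negative values are upstream). Filled points are longer cores and open points shorter words. The longer cores of PAC lie nearer to the start than those of RRPE, with medians of 122 and 148 bases upstream.

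Within the first 30 min of exit, mRNAs of most of these factors rose. At 30 min against quiescent cells 43 of the 52 genes rose, 2 fell and 7 did not pass the test (limma, adjusted p under 0.05). Over all 5871 genes tested, 20.6% rose and 23.7% fell. The median log2 change of the 52 genes was 1.79, a 3.45-fold increase, beside -0.073 for all genes tested. Their share of all reads was 1.85 ± 0.0266% at 30 min and 0.589 ± 0.107% in quiescent cells (SD, n = 3 each). In 48 genes the 3 libraries at 30 min lay above all 3 quiescent ones and in 2 below them, which held for 29.3% and 33.4% of all genes tested. With replicates 2 and 3 alone, 49 rose and 2 fell, without shares of all genes to set beside them.

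**Figure D2:**
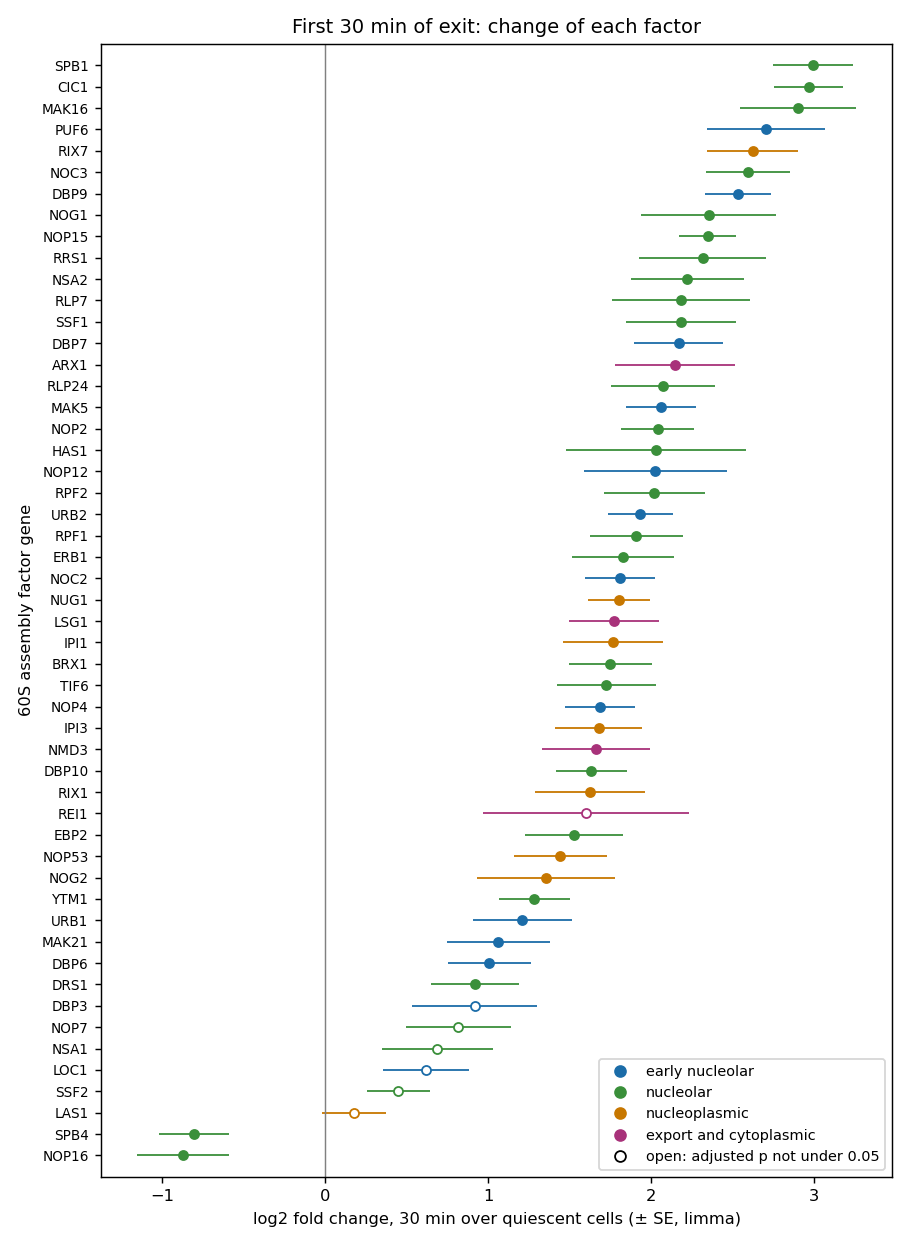
Log2 fold change with its standard error (limma) at 30 min over quiescent cells for each of the 52 genes, ordered by size and coloured by class. Filled points passed an adjusted p of 0.05. All but 2 genes lie right of 0, and the 4 classes are mixed along the order.

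The class medians lay close together. Early nucleolar genes had a median log2 change of 1.81 (11 of 13 rose), nucleolar genes 2.02 (22 of 27 rose, 2 fell), nucleoplasmic genes 1.65 (7 of 8 rose) and export and cytoplasmic genes 1.72 (3 of 4 rose). The early and the export medians thus differed by far less than the genes within the early class, which ran from 0.62 to 2.70. The difference between classes was not tested, since the genes are not replicates of a class. By library, the median over the early class stood 1.75, 1.81 and 1.78 log2 units above its quiescent level at 30 min. For the 4 export and cytoplasmic genes these values were 2.30, 1.57 and 1.86.

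Early nucleolar factors included some of the strongest increases. PUF6 encodes a Puf-repeat RNA-binding protein that works with Loc1 in 60S assembly. Its values were 2515, 1989.5 and 1862 at 30 min, against 404, 308 and 269 in quiescent cells, with no overlap. Its log2 change was 2.70 ± 0.36 (SE, adjusted p = 0.000153). DBP9, a DEAD-box RNA helicase of the first particles, had 2761, 2867 and 3086 at 30 min and 523, 513 and 466 in quiescent cells. It rose by 2.53 ± 0.20 (adjusted p = 1.1e-05). In the Npa1 complex, which holds the first pre-rRNA domains together, the scaffold gene URB2 rose by 1.93 ± 0.20, the scaffold gene URB1 by 1.21 ± 0.30 and the helicase gene DBP6 by 1.01 ± 0.25 on the log2 scale. Of the HEAT-repeat partners Noc1, Noc2 and Noc3, NOC3 rose by 2.60 ± 0.26, NOC2 by 1.81 ± 0.21 and MAK21, which encodes Noc1, by 1.06 ± 0.32. The call for MAK21 was lost without quiescent replicate 1 or without 30 min replicate 1 (adjusted p = 0.0561 to 0.0698).

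Among the nucleolar factors the methyltransferase gene SPB1 and the foot protein gene CIC1 led. Spb1 methylates rRNA riboses and Cic1, also called Nsa3, sits at internal transcribed spacer 2. SPB1 had 3664, 4701 and 4940.1 at 30 min, against 488, 647 and 533 in quiescent cells, and CIC1 had 1854, 2050.1 and 2344, against 293, 267 and 237. The log2 changes were 2.99 ± 0.25 and 2.97 ± 0.21 (adjusted p = 1.1e-05 and 8.42e-06). They were 7.95 and 7.81 times as high at 30 min, with every library at 30 min far above every quiescent one. MAK16, whose product binds Rpf1, had 2839, 3454 and 3359 at 30 min and 439, 421 and 424 in quiescent cells, a change of 2.90 ± 0.36. The spacer 2 proteins Nop15 and Rlp7 belong to the same foot structure as Cic1, and their genes rose by 2.35 ± 0.17 and 2.18 ± 0.42. RPF2 and RRS1, whose products bring in the 5S ribonucleoprotein together, rose by 2.02 ± 0.31 and 2.31 ± 0.39. The partners BRX1 and EBP2 rose by 1.75 ± 0.26 and 1.53 ± 0.30.

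Nucleoplasmic factors rose as well, apart from LAS1. RIX7, the AAA ATPase that strips Nsa1 from the particle, had 1706, 2375 and 2392 at 30 min and 265, 414 and 376 in quiescent cells, a log2 change of 2.62 ± 0.28 (adjusted p = 3.83e-05). The 3 genes of the Rix1 complex rose by 1.62 ± 0.34 for RIX1, 1.77 ± 0.31 for IPI1 and 1.68 ± 0.27 for IPI3. NUG1, a GTPase gene, rose by 1.80 ± 0.19, and NOP53, whose product recruits the exosome helicase Mtr4, by 1.44 ± 0.29. NOG2, the GTPase gene whose product holds the place of Nmd3, rose by 1.35 ± 0.42 (adjusted p = 0.0208). Leaving out quiescent replicate 1, or replicate 2 or 3 of the 30 min stage, ended that call (adjusted p = 0.0607 to 0.0842). The intron of NOG2 carries the small nucleolar RNA gene SNR191 over 274 bases on the same strand. SNR191 itself had 45.6 ± 18.4 units at 30 min and 41.8 ± 18.95 in quiescent cells, a small fraction of the NOG2 values of 1820.02, 2763 and 3221 and 690.4, 1197 and 1173.

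The 4 late factors each had their own spread. NMD3, the adaptor for the export receptor Crm1, had 3236, 4238 and 4774 at 30 min and 1339, 1271 and 1212 in quiescent cells. LSG1, the cytoplasmic GTPase that releases Nmd3, had 886, 563 and 759 and 216, 217 and 201 at the same stages. ARX1, an export factor near the exit tunnel, had 1356, 930.4 and 859 at 30 min and 167, 305 and 243 in quiescent cells. None of these 3 genes overlapped between the stages, and they rose by 1.66 ± 0.33, 1.77 ± 0.28 and 2.14 ± 0.37 log2 units (adjusted p = 0.00173, 0.000386 and 0.000699). REI1, whose product recycles Arx1, had 1551, 369 and 381 at 30 min and 398, 185 and 106 in quiescent cells, so that replicate 1 was about 4 times as high as the others at 30 min and the stages overlapped. Its log2 change of 1.60 ± 0.63 did not pass (adjusted p = 0.0563) but did with the replicate number as a block (adjusted p = 0.000446). REI1 overlaps the gene SLM6 over 453 bases on the opposite strand. The coding sequence of REI1 has 1182 bases. No source used here says that counting kept the strands apart, so the assignment of reads over the shared bases is uncertain.

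NOP16 and SPB4 went against the rest. NOP16, a structural protein of the nucleolar particle, had 4074, 3539.7 and 3323 at 30 min, against 6520.4, 7815 and 5761 in quiescent cells. SPB4, a DEAD-box helicase, had 1456, 1118 and 1143 at 30 min, against 1674, 2671 and 2234. Neither gene overlapped between the stages, and both were highest in quiescent cells of all 4 stages. NOP16 fell by 0.87 ± 0.28 and SPB4 by 0.81 ± 0.21 on the log2 scale (adjusted p = 0.0246 and 0.00898). With total-count scaling, which raises the median of all genes by 0.25 log2 units in this comparison, neither call held (-0.62, adjusted p = 0.125, and -0.55, adjusted p = 0.0817). The NOP16 call was also lost without quiescent replicate 1 or 2 or 30 min replicate 2 or 3 (adjusted p = 0.0501 to 0.0857). In quiescent cells NOP16 was the most abundant of the 52 genes per coding length, at 9625 ± 1492 units per kilobase (SD, n = 3).

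Beside REI1, 6 genes passed in neither direction. LAS1, the endonuclease that cuts internal transcribed spacer 2, had 785, 1001 and 967 at 30 min and 788, 904 and 741 in quiescent cells, and the stages overlapped (log2 change 0.17 ± 0.19, adjusted p = 0.486). The other 5 had all 3 libraries at 30 min above the quiescent ones. LOC1, the partner gene of PUF6, had 2544, 2744 and 2935 at 30 min and 1499, 2139 and 1767 in quiescent cells. NOP7 had 5148, 7407 and 7617 and 2483, 4982 and 4309, although its complex partners ERB1 and YTM1 rose by 1.83 ± 0.31 and 1.28 ± 0.22. The log2 changes were 0.62 ± 0.26 for LOC1, 0.82 ± 0.32 for NOP7, 0.69 ± 0.34 for NSA1, 0.92 ± 0.39 for the helicase gene DBP3 and 0.45 ± 0.19 for SSF2 (adjusted p = 0.0753, 0.0562, 0.118, 0.0713 and 0.0788). With the replicate number as a block, LOC1, NOP7, DBP3 and SSF2 passed (adjusted p = 0.0161, 0.0017, 0.0467 and 0.0476), and 48 of the 52 genes rose.

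Grouped by protein family, 7 of the 9 DEAD-box helicase genes rose and SPB4 fell, with a median log2 change of 1.63. The 4 GTPase genes (NOG1, NOG2, NUG1, LSG1) all rose, with a median of 1.79. Of 5 genes for Brix-domain proteins, which share an RNA-binding fold, BRX1, RPF1, RPF2 and SSF1 rose and SSF2 did not pass.

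Partners were also set against each other within a library. The paralogs SSF1 and SSF2 encode Brix-domain proteins with 92.1% identical coding bases (1254 of 1362), and 1.40% of their 75-base words are shared, so a small part of their reads is uncertain. SSF1 had 1679, 1747 and 1444 at 30 min, against 342, 381 and 347 in quiescent cells, while SSF2 had 1191, 1099.6 and 1005, against 893, 779 and 747. SSF1 rose by 2.18 ± 0.34 (adjusted p = 0.000364). The ratio of SSF1 to SSF2 was 1.41, 1.59 and 1.44 at 30 min, against 0.383, 0.489 and 0.465 in quiescent cells, so that SSF1 was the higher paralog in every library at 30 min and the lower one in every quiescent library. Such ratios, taken within a library per coding length, do not depend on the scaling between libraries. They were compared for 14 pairs, which were chosen after the values were seen. In 6 pairs the stages did not overlap, and how often random gene pairs do not overlap was not counted. The exact two-sided permutation p of these 6 was 0.1, the smallest that 3 against 3 libraries allow (0.233 adjusted over the 14 pairs). The test could therefore call no pair, and no conclusion is drawn from it. Several pairs also share a gene (RPF1, NOC2, NOP7, RIX1 or URB1), so the 14 are not separate tests. The ratios are given as a description. PUF6 over LOC1 was 0.244 ± 0.0574 at 30 min and 0.0589 ± 0.022 in quiescent cells. MAK16 over RPF1 was 1.32 ± 0.208 at 30 min and 0.669 ± 0.167 in quiescent cells, while NSA1 over RPF1, in the same module, was 0.276 ± 0.0431 and 0.668 ± 0.225 (SD, n = 3 each). In the Rix1 complex, IPI3 over RIX1 was 1.502 ± 0.109 at 30 min and 1.46 ± 0.244 in quiescent cells, and the stages overlapped.

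Other assembly genes, from lists made beside the 52, gave similar counts. Of 33 further 60S factors 28 rose at 30 min against quiescent cells and 5 did not pass, with a median log2 change of 1.61. Of 60 factors of the small (40S) subunit 54 rose and 6 did not pass, with a median of 1.70.

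Promoter content and response were set side by side after both had been seen. At 30 min against quiescent cells, the 15 members with both longer cores had a median log2 change of 2.02 (13 rose), the 29 with 1 of them 1.80 (23 rose, 2 fell) and the 8 with neither 1.70 (7 rose). Outside the 52 genes, 63 tested genes with both longer cores had a median of 1.60 (45 rose, 1 fell) and 401 with 1 of them 0.69 (192 rose, 58 fell). Over all tested genes with neither, 5076 in number, the median was -0.11 (906 rose, 1232 fell). The sets of 63 and 401 genes were not cleared of the other assembly genes listed beside the 52. Both longer cores were in 4 windows of the further large-subunit factors and in 16 of the small-subunit factors. Whether promoter content goes with the response in genes outside ribosome assembly was not tested. Of the members not called higher, NOP16, SPB4, LAS1, REI1, LOC1, NOP7, NSA1 and DBP3 hold a longer core too, and SSF2 holds neither.

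Between 30 and 240 min of exit hardly any of these genes passed the test. At 240 min against 30 min 1 of the 52 genes rose, none fell, and 51 did not pass, while 13.3% of all genes tested rose and 14% fell. At an unadjusted p under 0.05, 2 were higher and 1 lower, and edgeR gave 1 and 0, DESeq2 2 and 0 after adjustment. The median log2 change was 0.16, beside -0.012 for all genes. All 3 libraries at 240 min lay above those at 30 min in 9 genes and below in 5, as they did for 25.6% and 27.6% of all genes. The sign of the median depends on the scaling and on replicate 1: it was -0.29 with total-count scaling, which moves the median of all genes by -0.45, and -0.11 in replicate 1 alone. With replicates 2 and 3 alone 21 genes rose and 2 fell, but the shares of all genes in that fit are not given.

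**Figure D3:**
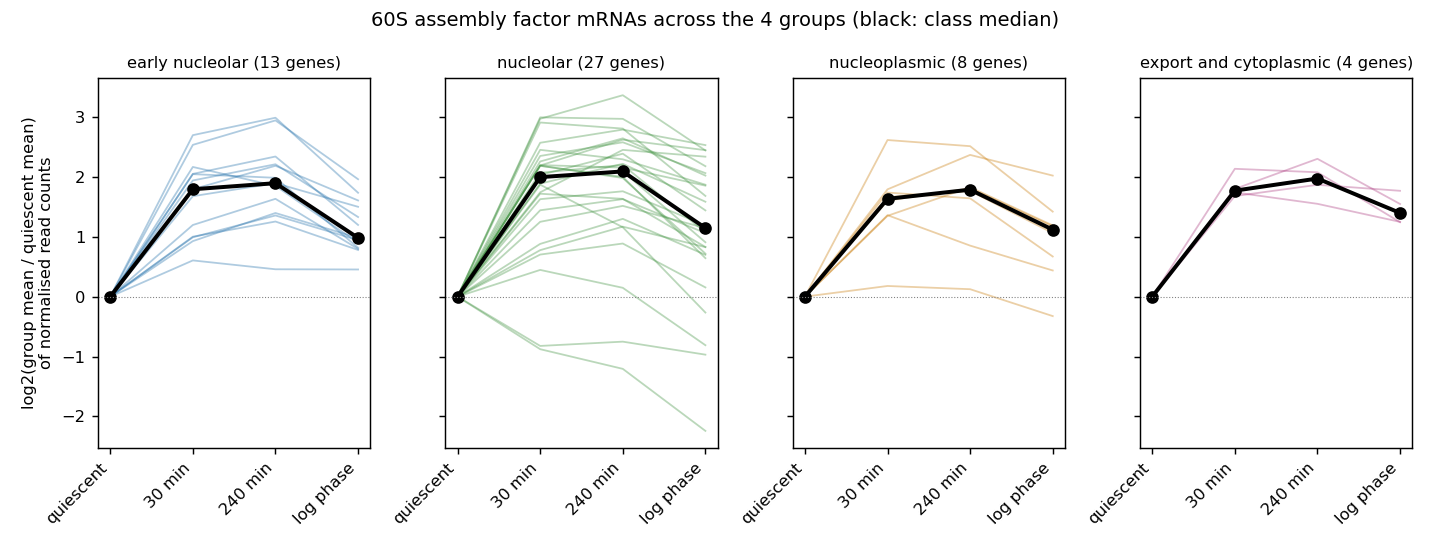
Log2 ratio of each group mean to the quiescent mean for the 52 genes, in panels by class, across quiescent cells, 30 min, 240 min and log phase. Thin lines are genes and the black line is the class median. All 4 medians climb to 30 min, change far less to 240 min and end lower in log phase. The class medians of the limma changes from 30 to 240 min, which are not the drawn values, ran from -0.0041 to 0.30.

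NUG1 was the gene that rose, with 2714, 3297 and 3360.3 at 240 min, against 2209, 2037 and 2043 at 30 min and no overlap. Its log2 change was 0.57 ± 0.19 (adjusted p = 0.0416). The call was lost in 7 of the 12 fits that leave out a library (adjusted p = 0.054 to 0.139) and with total-count scaling (0.12, adjusted p = 0.664). BRX1 had 2328, 4097 and 3991 at 240 min and 2019.5, 2099.6 and 2252 at 30 min, all higher at 240 min, though replicate 1 only slightly so. Its change of 0.66 ± 0.26 did not pass (adjusted p = 0.0718), and with the replicate block it did (adjusted p = 0.0112). RPF1, a Brix-domain partner of Mak16, had 1257, 1524 and 1568 at 240 min and 2541, 2287 and 2291 at 30 min, with no overlap. Its change of -0.72 ± 0.29 did not pass either (adjusted p = 0.0827) and passed with the block (adjusted p = 0.0404). LSG1, DBP3 and URB1 were next on the higher side, with log2 changes of 0.52, 0.51 and 0.46. On the lower side NOP53, DBP7, NOP16 and SSF2 had changes of -0.52, -0.33, -0.32 and -0.30, none past the test.

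In log phase against 240 min 15 of the 52 genes fell, 37 did not pass and 0 rose (limma, 0 also by edgeR, by DESeq2 and at an unadjusted p under 0.05). Over all genes tested 3.27% rose and 4.09% fell. The median log2 change was -0.69, beside -0.0087 for all genes, and the highest of the 52 values was -0.049. All 3 log-phase libraries lay below those at 240 min in 24 genes, which held for 12.7% of all genes, and above them in 0 (9.64% of all genes). The share of reads was 0.823 ± 0.206% in log phase and 1.498 ± 0.118% at 240 min (SD, n = 3 each). By class, 5 of 13 early, 9 of 27 nucleolar, and 1 of 8 nucleoplasmic genes fell and the 4 export and cytoplasmic genes did not pass. The median log2 changes were -0.82, -0.75, -0.58 and -0.62 in that order. The difference between classes was not tested. Of the 33 further 60S factors 6 fell, and of the 60 factors of the 40S subunit 24.

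The number of genes that fell rests on single libraries. Log-phase replicate 1 was more than 2-fold above the mean of replicates 2 and 3 in 19 of the 52 genes and more than 2-fold below it in 1, NMD3. Such counts over all genes are not given. Regardless of sign, the median deviation was 0.75 log2 units over the 52 genes and 0.64 over all genes tested. With its sign, the median was 0.53 and -0.044. Relative to the mean at 240 min, the median of replicate 1 over the 52 genes was -0.40 log2 units, while replicate 2 had -1.09 and replicate 3 had -0.80. Without log-phase replicate 1, 30 genes fell, and with replicates 2 and 3 alone 45 did. The share of all genes that fell in these reduced fits is not given, so the larger counts cannot be set against it. None fell without 240 min replicate 2 or replicate 3, 2 fell without log-phase replicate 2, and 1 without log-phase replicate 3. Leaving out quiescent replicate 2 gave 10, and quiescent replicate 3, 30 min replicate 2 or 30 min replicate 3 gave 7 each, since all 12 libraries share one estimate of the spread. The replicate block gave 26, edgeR 11, DESeq2 20, array weights 7 and total-count scaling 27. The median spread between libraries over the 52 genes was 0.46 log2 units in log phase and 0.17 to 0.27 at the other stages. Over all genes it was 0.42 in log phase and 0.21 to 0.25 at the others.

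**Figure D4:**
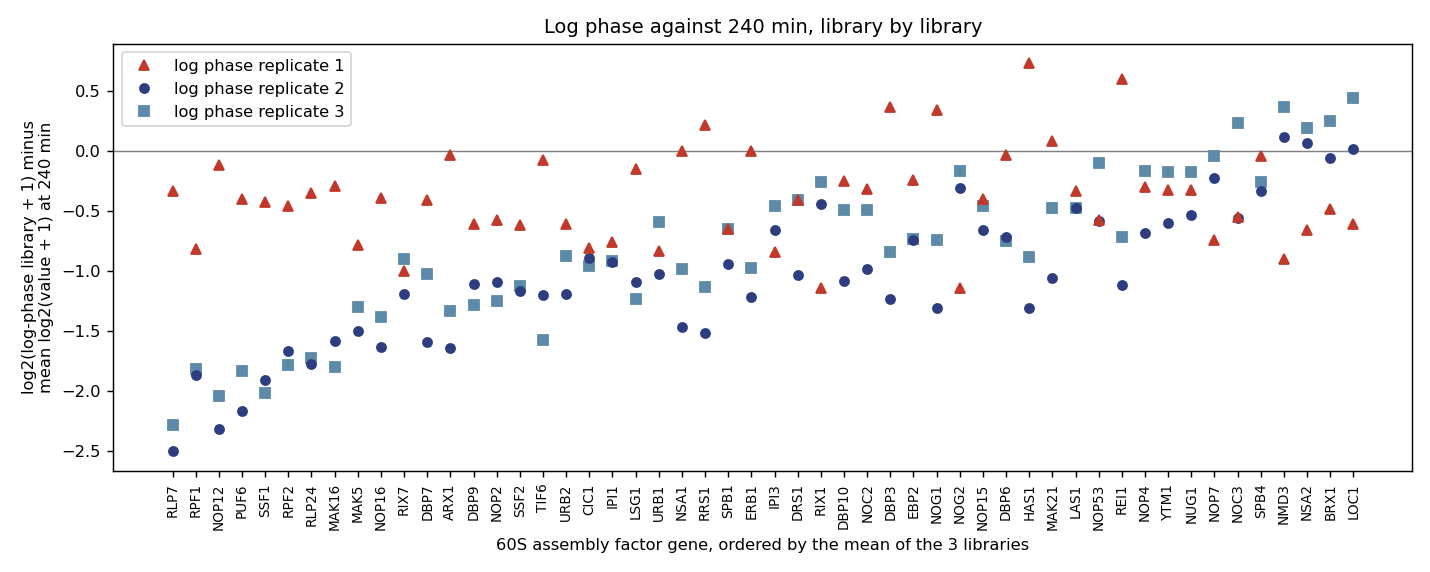
Log2 value of each log-phase library minus the mean log2 value at 240 min, for the 52 genes in the order of the mean of the 3 libraries. Triangles are replicate 1, circles replicate 2 and squares replicate 3. Replicate 1 lies nearer to 0 than the other two for most genes at the left, with medians of -0.40, -1.09 and -0.80 for replicates 1, 2 and 3.

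RLP7, related to the ribosomal protein gene RPL7, had 2454, 544 and 634 in log phase, against 3271, 2876 and 3155 at 240 min. Replicate 1 was thus near the 240 min level and the other two far below it. RLP7 fell by 1.71 ± 0.42 (adjusted p = 0.0343) and RPF1 by 1.504 ± 0.29 (adjusted p = 0.0126). PUF6 had 1963, 577 and 727 in log phase, against 2776, 2427 and 2587 at 240 min, and SSF1 had 1044, 371 and 346, against 1204, 1460.2 and 1563. Both show the same division of the log-phase libraries. They fell by 1.47 ± 0.36 and 1.45 ± 0.34 log2 units (adjusted p = 0.0343 and 0.0281). NOP12, an RNA-binding protein of early particles, had a change of -1.49 ± 0.44 that did not pass (adjusted p = 0.0591). The helicase gene MAK5 had 1317, 802 and 922 in log phase and 2069, 2364 and 2403 at 240 min, low in all 3 libraries, and fell by 1.20 ± 0.21 (adjusted p = 0.00949). The other genes that fell were RPF2, RLP24, NOP16, RIX7, DBP7, DBP9, NOP2, SSF2, URB2 and CIC1, with changes from -1.31 to -0.89. With the replicate block DBP6, NOP12, URB1, NOP15, SPB1, MAK16, TIF6, RIX1, IPI1, IPI3 and LSG1 passed as well.

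At the other end 5 genes changed least between 240 min and log phase. LOC1 had a log2 change of -0.049 ± 0.26, BRX1 -0.098 ± 0.26, NSA2 -0.14 ± 0.35, NMD3 -0.14 ± 0.33 and SPB4 -0.21 ± 0.21, with adjusted p from 0.567 to 0.926. NMD3 had 2401, 4859 and 5761 in log phase and 3008, 5386 and 5565 at 240 min, with replicate 1 the lowest at both stages. BRX1 had 2407, 3227 and 3995 in log phase and 2328, 4097 and 3991 at 240 min, again with replicate 1 low.

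**Figure D5:**
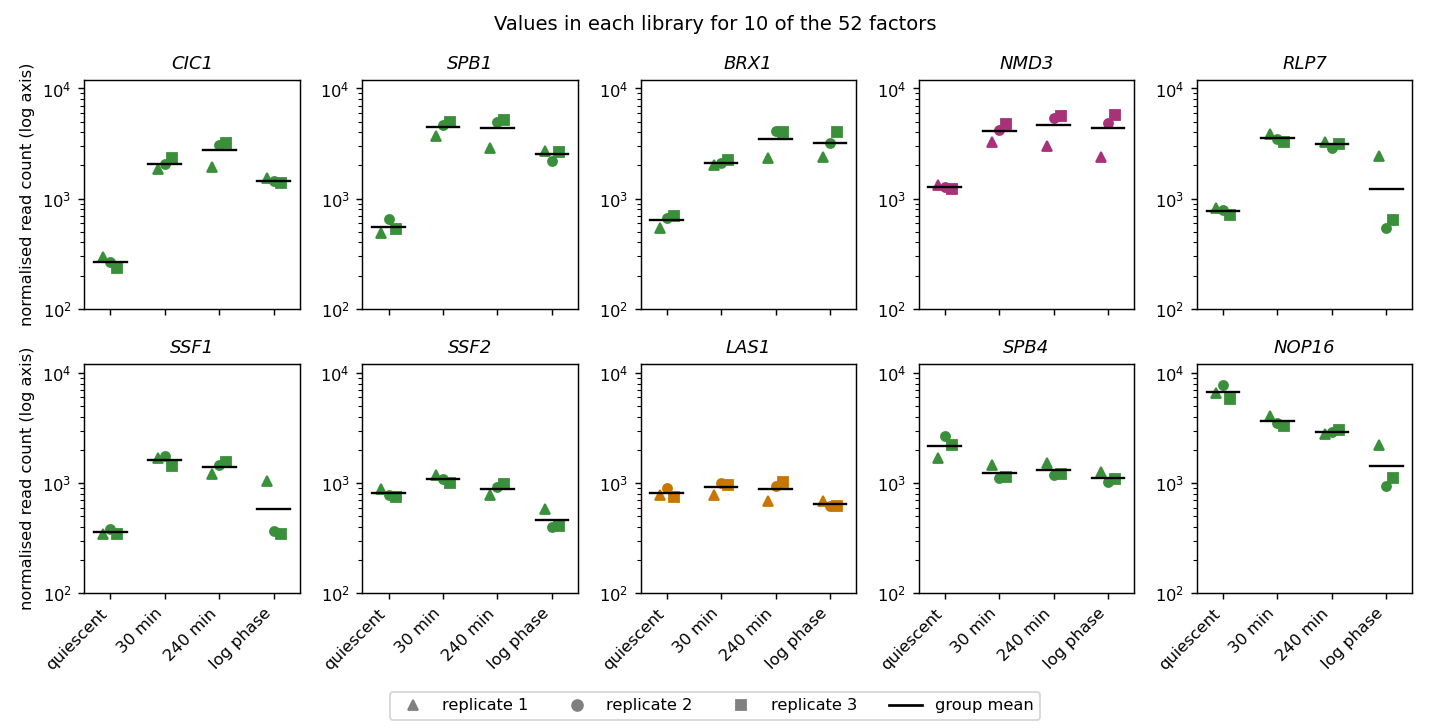
Normalised read count (log axis) in each of the 12 libraries for 10 of the 52 genes, with the replicate number as marker shape and a bar at the group mean. CIC1 and SPB1 lie higher at the 3 later stages than in quiescent cells in every library. RLP7 and SSF1 divide in log phase into replicate 1 (2454 and 1044) and the other two, and NOP16 is highest in quiescent cells.

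Set against quiescent cells, the rise was kept at 240 min and in part in log phase. These comparisons share the quiescent libraries with the one at 30 min, so they are not independent of it. At 240 min 47 genes were higher, 2 lower and 3 not called (LOC1, SSF2 and LAS1), with a median log2 change of 1.93. Of all genes tested 29.1% were higher and 29.5% lower. The replicate block also called LOC1 (adjusted p = 0.0489), and replicates 2 and 3 alone gave 49 higher and 2 lower. In log phase 37 were higher, 3 lower and 12 not called, with a median of 1.14, and of all genes 28.8% were higher and 27.8% lower. The block added TIF6, IPI1 and REI1 (adjusted p = 0.0393, 0.0282 and 0.00121). Total-count scaling, which moves the median of all genes by -0.47, gave 22 higher and 5 lower, and replicates 2 and 3 alone gave 38 higher and 7 lower. By class, 10 of 13 early, 19 of 27 nucleolar, 5 of 8 nucleoplasmic and 3 of 4 export and cytoplasmic genes were higher in log phase than in quiescent cells, and the 3 lower genes were all nucleolar.

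CIC1 had the largest of these changes, 3.33 ± 0.21 at 240 min (adjusted p = 4.33e-07), where its values were 1938, 3081 and 3187. In log phase NOP16 fell by 2.33 ± 0.28 (adjusted p = 2.4e-05), with 2204, 935 and 1107, against 6520.4, 7815 and 5761 in quiescent cells. SPB4 and SSF2 fell by 0.95 ± 0.21 and 0.83 ± 0.19 log2 units in log phase (adjusted p = 0.0024 and 0.00302). SPB4 had 1251, 1027 and 1082 in log phase, against 1674, 2671 and 2234 in quiescent cells, and SSF2 had 577, 396 and 405, against 893, 779 and 747.

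Over the 4 stages the mean was highest in quiescent cells for 2 genes, after 30 min for 18, after 240 min for 32 and in log phase for 0. Such counts were not made over all genes. The split between 30 and 240 min is weak, since only 1 of the 52 genes passed the test between these stages. The median change there was 0.16 log2 units, and -0.29 with total-count scaling. It was lowest in quiescent cells for 47 and in log phase for 5 (NOP16, SPB4, RPF1, SSF2 and LAS1). Per kilobase of coding length, the most abundant of the 52 genes stood above the least abundant by 176-fold in quiescent cells, 33.4-fold and 37.4-fold after 30 and 240 min, and 46.95-fold in log phase. By the mean, RRS1 was the most abundant at the 3 later stages, with 7033 ± 884 units per kilobase after 30 min, 9195 ± 1581 after 240 min and 5972 ± 4035 in log phase (SD, n = 3 each). In log phase this rank rests on replicate 1. RRS1, with 612 coding bases, had 6486, 1948 and 2531 there. LOC1, with 615, had 1605, 2478 and 3321 and was thus higher in replicates 2 and 3. The 46.95-fold range uses the same RRS1 mean. URB2 was the least abundant in quiescent cells, at 54.8 ± 4.84, and at 30 min, and DBP7 at the other two.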

How the data were processed

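Poly(A) RNA of 12 yeast samples, 3 at each of 4 stages, was sequenced from 1 end with 75-base reads, per the labels' protocols. The authors deposited 1 table of a non-negative signal, normalised read counts by gene. The submitters' processing notes name STAR 2.5.2a and HTSeq 0.6.1, then DESeq, DESeq2 and bedtools without versions, and the sacCer3 build, but no roles. Divided by the worth of a single read, 100% of values came out whole (tolerance 1e-06), so whole reads could be recovered for count tests. Of 6120 gene names 6113 matched the R64 annotation.

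Comparisons used limma-trend (limma 3.58.1 in R 4.3.3) on log2(value + 1), a scale that understates changes of low genes. One model over all 12 libraries and 4 groups, without a block, had 8 residual degrees of freedom and covered 5871 genes with a mean of at least 10. The tests are two-sided, adjusted by Benjamini-Hochberg over all genes of a comparison, and a gene was called to have risen or fallen at an adjusted p under 0.05. Depth was lowest in quiescent libraries. No 2 libraries of a group were alike within sampling noise. The test was checked on simulated counts, from which no error rate for these libraries is drawn.

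Replicate numbers come from the labels. Across genes, deviations from group means correlated at 0.134 to 0.582 in the 18 same-number pairs. Replicate 2 correlated with replicate 3 to a like degree (0.210 to 0.553), and replicate 1 with the others at -0.604 to -0.197. These values set replicate 1 apart and cannot show that the numbers pair the samples. The replicate block, which treats the numbers as pairs, is an alternative, and genes that pass only with it depend on that assumption. The others were a pseudocount of 8, no filter, a filter at 50, total-count scaling, edgeR 4.0.16 (quasi-likelihood) and DESeq2 1.42.0 on recovered reads, array weights by group, each library left out, and replicates 2 and 3 or replicate 1 alone. Shares of all genes called are given for the limma model without a block only, not for these alternatives.

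The 52 genes, the lists and the tests were chosen with earlier results of these data known. Named genes were the 5 highest and 5 lowest changes in each of the 3 successive comparisons, the late factors, subunits of 7 complexes, SSF1 and SSF2, the 9 DEAD-box helicases, genes not called higher at 30 min, and genes that overlap another. The partner ratios, the protein families, the division of genes by promoter content, the order of the motifs and the neighbouring genes were added after the values were seen.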

Additional observations from a re-analysis of the deposited data

How the results depend on the processing

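The pseudocount of 8, no filter and the filter at 50 changed no call of any member. Total-count scaling gave 0 members lower at 30 min against quiescent cells, with medians of 2.04 (all), 2.06 (early) and 2.27 (nucleolar). At 240 min against 30 min it gave 0 higher and 3 lower, with reversed medians of -0.29 (all), -0.15 (early), -0.32 (nucleolar) and -0.34 (export and cytoplasmic). It gave 27 lower in log phase against 240 min, and medians at 240 min against quiescent cells of 1.73 (all), 1.91 (nucleolar) and 1.77 (export and cytoplasmic). In log phase against quiescent cells it gave 22 higher and 5 lower, with medians of 0.67 (all), 0.69 (nucleolar) and 0.66 (nucleoplasmic). Over the 5 comparisons in this order the median of all genes moved by 0.25, -0.45, -0.27, -0.20 and -0.47, and that of the 52 genes by nearly the same amounts.

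For 240 min against 30 min, DESeq2 gave 2 higher, array weights 3 higher and 1 lower, the replicate block 2 higher and 1 lower, and replicates 2 and 3 alone 21 higher and 2 lower. For log phase against 240 min, array weights gave 7 lower, the replicate block 26 and replicates 2 and 3 alone 45. Replicates 2 and 3 alone gave 7 lower in log phase against quiescent cells, and a nucleolar median of 1.84 at 30 min against quiescent cells. The replicate block changed no call beyond those given with the results. Replicate 1 alone gave medians of 1.97 (all) at 30 min against quiescent cells, and -0.11 (all, reversed) and -0.0924 (nucleolar, reversed) at 240 min against 30 min, where the export and cytoplasmic median changed sign too, to -0.19, by less than the spread between libraries. It gave -0.23 (all), -0.26 (early) and -0.21 (nucleolar) in log phase against 240 min, and 1.65 (all), 1.72 (early) and 1.85 (nucleolar) in log phase against quiescent cells. For single genes, a change of sign was counted as a reversal where the gene was called under either setting. In log phase against quiescent cells RLP7 reversed to -0.40 without log-phase replicate 1 and to -0.35 with replicates 2 and 3 alone, and NSA1 to -0.47 with replicates 2 and 3 alone. The shorter words gave 47 members with PAC, 46 with RRPE and 41 with both, and the 250 bases before the start gave the same counts for the longer cores.

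Leaving out each of the 12 libraries in turn gave the following ranges. For 30 min against quiescent cells, 41 to 49 were higher and 1 to 2 lower, with medians of 1.79 to 1.87 (all), 1.68 to 1.92 (early), 1.86 to 2.04 (nucleolar), 1.44 to 1.80 (nucleoplasmic) and 1.68 to 1.95 (export and cytoplasmic). For 240 min against 30 min, 0 to 4 were higher and 0 to 1 lower, with medians of 0.12 to 0.25 (all), 0.21 to 0.37 (early), 0.097 to 0.20 (nucleolar), -0.14 to 0.28 (nucleoplasmic) and 0.043 to 0.41 (export and cytoplasmic). For log phase against 240 min, 0 were higher and 0 to 30 lower, with medians of -0.93 to -0.57 (all), -1.03 to -0.71 (early), -1.10 to -0.49 (nucleolar), -0.94 to -0.38 (nucleoplasmic) and -1.04 to -0.48 (export and cytoplasmic). For 240 min against quiescent cells, 44 to 47 were higher and 1 to 2 lower, with medians of 1.87 to 2.07 (all), 1.78 to 2.06 (early), 1.99 to 2.10 (nucleolar), 1.49 to 2.07 (nucleoplasmic) and 1.96 to 2.07 (export and cytoplasmic). For log phase against quiescent cells, 29 to 38 were higher and 3 to 5 lower, with medians of 0.91 to 1.25 (all), 0.69 to 1.23 (early), 1.01 to 1.28 (nucleolar), 0.91 to 1.298 (nucleoplasmic) and 0.94 to 1.59 (export and cytoplasmic). Reads were fewest in quiescent libraries, while the spread between libraries was widest in log phase, and libraries of a stage differed by more than counting noise at all 4 stages.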

Other observations

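Genes next to the members were looked up after the values were seen. On chromosome VI the gene DEG1, a tRNA pseudouridine synthase, lies between SPB4 and LOC1. It starts 196 bases from SPB4, on the other strand, so the 2 genes are transcribed away from each other. DEG1 rose by 1.13 ± 0.20 log2 units at 30 min against quiescent cells (SE, adjusted p = 0.000877), while SPB4 fell. LOC1, which did not pass, stands between DEG1 and the nuclear pore gene NIC96, which rose by 1.31 ± 0.19 (adjusted p = 0.000218). The upstream neighbour of NOP16, MNN1, had a log2 change of 1.15 ± 0.21 (adjusted p = 0.000969), and NOP16 itself fell. Only neighbours of SPB4, LOC1 and NOP16 are named, and no count over the neighbours of the other members is given. Of all genes tested, 20.6% rose in this comparison. These values are given as a description, and shared control of neighbours was not tested.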
